A study of Mus musculus with 12 samples.

Results

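H3K27ac regions that csNrip1-/- and control cardiomyocytes (CMs) had in common, and that were more than 1.5 times wider in the csNrip1-/- (KO) cells, were described. The members were chosen by their measured widths alone. Each is a locus on chromosomes 1 to 19 or X where exactly 1 region of the KO list and 1 region of the control list overlapped each other by at least 1 bp and no other region of either list. Both regions were under 10000 bp, and the KO width exceeded 1.5 times the control width. Of 26338 such one-to-one loci, 4915 (18.7%) met the rule and are called widened. The opposite rule, a control width over 1.5 times the KO width, was met by 3070 loci (11.7%), called narrowed, and the remaining 18353 loci are called similar. The loci took in 57.9% of the 45517 KO regions and 49.0% of the 53750 control regions. The rest overlapped nothing, overlapped several regions or were too wide. Because the widths chose the members, their widths are given as a description and were not tested.

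The study deleted *Nrip1*, which encodes the nuclear receptor corepressor RIP140, in CMs. Both groups carried the floxed allele (Nrip1 f/f), and the KO mice also carried Cre driven by Nkx2.5. No group carried Cre without the floxed allele, so deletion and Cre cannot be told apart. The mice were 10 to 12 weeks old and, by the paper, male. In each CUT&RUN experiment 200000 isolated CMs were used, with 3 H3K27ac and 3 IgG samples per genotype. CUT&RUN directs a nuclease with an antibody to chromatin and sequences the released DNA. The authors called regions in each H3K27ac sample against IgG and kept those found in at least 2 of the 3 samples, as 1 list per genotype. The lists give positions only. The depth behind each region and the spread between mice are therefore unknown, and no difference in width could be tested against replicate error. Each interval given with a share has a level of 95% and was computed by the Wilson method over loci, so it covers counting error only and treats neighboring loci as independent.

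H3K27ac is an acetyl mark on the tail of histone H3 that is found at active promoters and enhancers. Histone acetyltransferases such as CBP write it and histone deacetylases, which corepressor complexes bring to chromatin, remove it. A region's width is the span of calls joined across samples, each call being a stretch where the mark stood above the IgG background. The span does not tell a longer call from more calls joined. A wider region is therefore not necessarily a mark found further from its center in each sample, nor a stronger mark. The estrogen-related receptors (ERRs) are nuclear receptors that activate genes of fatty acid oxidation and mitochondrial respiration in the heart, and MEF2 factors activate genes of muscle contraction. RIP140 is known to bind nuclear receptors, the ERRs among them.

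The libraries held the marks of CMs. A region covered an annotated transcription start site (TSS) of 9 of 10 CM marker genes in both lists, with *Nppa*, an atrial gene in the adult, the exception. No TSS of 7 fibroblast or 6 macrophage markers was covered in either list. Of 6 endothelial markers, 5 were covered in KO and 6 in control CMs, and of 5 mural cell markers, 2 in each, and the part of such cells in the widths was not tested. At *Nrip1* itself, control regions covered 2904 bp of the last exon (chromosome 16, 76287400 to 76295015), and KO regions covered 0 bp of it.

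Sequences from members near genes of the fixed lists are shown first, because the ERR and MEF2 consensus sequences recur in the comparisons below. They come from GRCm38.p6, plus strand, with the consensus match in capitals and 30 bases on either side. The shared stretch is the part covered in both genotypes, and the added stretch is the part covered in KO CMs only. For the ERR consensus TCAAGGTCA, searched on both strands (TGACCTTGA on the other), examples lay near *Crat* and *Cpt2*, of carnitine-dependent acyl transfer, *Ivd*, of leucine breakdown, *Ankrd1*, a muscle stress gene, *Acadm*, the medium-chain acyl-CoA dehydrogenase, and *Ndufab1*, a complex I subunit. The last 2 lie in bases that the genome build masks as repeats.
Crat, shared stretch, chr2:30401901-30401969: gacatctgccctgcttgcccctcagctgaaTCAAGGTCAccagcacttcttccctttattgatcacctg
Cpt2, added stretch, chr4:107920509-107920577: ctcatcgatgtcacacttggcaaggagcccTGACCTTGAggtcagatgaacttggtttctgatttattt
Ivd, added stretch, chr2:118882054-118882122: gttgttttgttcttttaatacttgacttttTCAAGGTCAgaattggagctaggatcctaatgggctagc
Ankrd1, added stretch, chr19:36114955-36115023: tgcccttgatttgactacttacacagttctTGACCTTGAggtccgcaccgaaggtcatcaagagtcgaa
Acadm, shared stretch, in a repeat, chr3:153935702-153935770: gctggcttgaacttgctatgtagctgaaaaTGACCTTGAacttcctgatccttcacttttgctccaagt
Ndufab1, added stretch, in a repeat, chr7:122091778-122091846: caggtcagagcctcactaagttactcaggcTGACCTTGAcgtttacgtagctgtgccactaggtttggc
For the MEF2 consensus, examples lay near *Myh7*, the β-myosin heavy chain, *Klf2*, a Krüppel-like factor, *Acot7*, an acyl-CoA thioesterase, *Mdh2*, malate dehydrogenase, and *Gata4*, a cardiac transcription factor.
Myh7, shared stretch, chr14:55004083-55004152: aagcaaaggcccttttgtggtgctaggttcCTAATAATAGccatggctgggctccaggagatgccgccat
Klf2, shared stretch, chr8:72318914-72318983: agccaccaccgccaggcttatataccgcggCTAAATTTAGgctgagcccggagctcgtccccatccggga
Acot7, added stretch, chr4:152175908-152175977: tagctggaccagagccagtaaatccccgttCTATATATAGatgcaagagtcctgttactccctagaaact
Mdh2, added stretch, chr5:135779794-135779863: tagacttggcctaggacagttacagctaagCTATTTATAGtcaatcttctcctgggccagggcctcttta
Gata4, added stretch, chr14:63216992-63217061: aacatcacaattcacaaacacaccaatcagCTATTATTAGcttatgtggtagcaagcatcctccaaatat
The matches of *Crat*, *Acadm*, *Myh7* and *Klf2* were covered in both genotypes, and the others were covered in KO CMs only. A match is a description of the letters and not evidence of a bound factor.

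The members were narrower than most shared regions in control CMs and somewhat wider in KO CMs. Their median width was 1343 bp in control and 2836 bp in KO CMs, and the interquartile range ran from 952 to 1974 bp and from 2028.5 to 4132 bp. Over all one-to-one loci, the medians were 2182 bp in control and 2335 bp in KO CMs. The median ratio of KO to control width was 1.88 among members, and 2038 members (41.5%) were more than 2 times wider, 574 (11.7%) more than 3 times and 111 (2.26%) more than 5 times. The highest ratio was 13.4. Narrowed loci were nearly a mirror image, with a median of 2832.5 bp in control and 1372 bp in KO CMs, and 39.4% of them were more than 2 times narrower. The net added length of members was 8216.5 kb, with a median of 1376 bp per locus, against 4912.9 kb net lost at narrowed loci. Over all regions of each list, paired or not, the median width was 2291 bp in KO and 1846 bp in control CMs. The distribution over all one-to-one loci lay slightly toward wider KO regions, with a median ratio of 1.05. With KO widths divided by that ratio, widened loci were 53.1% of the widened plus narrowed loci, in place of 61.6% (interval 60.5% to 62.6%).

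**Figure D1:**
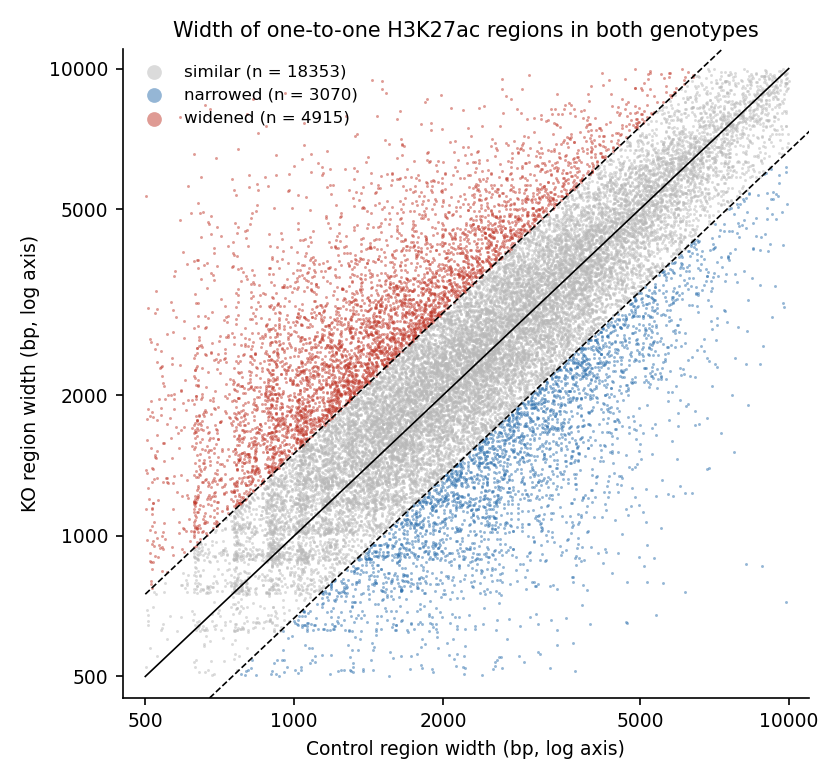
Width of the KO region against width of the control region at each of the 26338 one-to-one loci, on log axes in bp. The solid line marks equal widths and the dashed lines a 1.5-fold difference. The 4915 widened loci lie above the upper dashed line, the 3070 narrowed loci below the lower one, and widened loci are spread over control widths from 501 to 6419 bp.

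The growth was mostly on 1 side of the control region. In 72.3% of members (interval 71.1% to 73.6%), the KO region contained the whole control region, and in 59.7% (58.3% to 61.0%), at least 80% of the added length lay on 1 side. The median longer added stretch was 1180 bp and the median shorter one 175 bp. Narrowed loci had the same geometry in the other direction, with 59.7% losing at least 80% of the lost length on 1 side and a median longer lost stretch of 1177.5 bp. One-sided change was thus as common among narrowed as among widened loci.

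Each region joins calls from the 3 samples, and the number in its name, read here as the number of calls joined, moved with width. No source used here states what this number counts. In members, 40.7% of KO regions but 20.5% of control regions joined 3 or more calls, against 39.6% and 36.3% over all one-to-one loci. The KO region joined more calls in 31.4% of members, the same number in 60.7% and fewer in 7.96%. Of loci with more calls in KO, 27.1% were widened and 4.05% narrowed, and of loci with fewer, 8.31% were widened and 19.3% narrowed. Where both regions joined the same number, 2981 of 15931 loci (18.7%) were widened and 1933 (12.1%) narrowed. Where both numbers were exactly 2, the lowest found and by this reading 1 call from each of 2 samples, 2566 of 12292 loci (20.9%) were widened and 1727 (14.0%) narrowed. Widened loci outnumbered narrowed loci in each of these equal groups, at 60.7% and 59.8% of both together.

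Loci at promoters were widened less often than other loci (16.6% against 19.2%) and narrowed less often still (7.35% against 12.8%), so widened loci were a larger share of both there. By the center of the shared stretch, 18.6% of members lay from 1000 bp upstream to 100 bp downstream of a TSS, 5.84% in other exons, 51.0% in introns and 24.5% between genes. Narrowed loci lay at promoters less often, at 13.2% (interval 12.0% to 14.4%), and similar loci more often, at 22.8% (22.2% to 23.5%), and the share over all one-to-one loci was 20.9%. At promoters, 915 loci were widened and 405 narrowed, so widened loci were 69.3% of both (66.8% to 71.7%). In other exons this share was 66.0% (61.4% to 70.3%), an interval that overlapped that of promoters. In introns it was 60.1% (58.6% to 61.6%) and between genes 58.6% (56.4% to 60.7%). The median log2 ratio of widths was 0.11 at promoters and 0.06 between genes. Among loci with the same number of calls in both lists, the share was 67.2% at promoters (63.5% to 70.6%) and 59.6% elsewhere (58.1% to 61.1%). Among those with 2 calls in both, it was 63.7% (59.2% to 67.9%) and 59.3% (57.7% to 60.8%), and these intervals overlapped.

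The surplus of widened loci was similar across region widths. In bins of the geometric mean of KO and control width, widened loci made up between 60.2% and 62.9% of widened plus narrowed loci. Both kinds were most frequent from 1000 to 1500 bp, where 23.5% of loci were widened and 14.3% narrowed, and least frequent from 4000 to 10000 bp, at 9.68% and 5.71%. In each of the 6 bins a larger share of widened than of narrowed loci lay at promoters, for instance 18.6% against 11.1% from 1000 to 1500 bp and 16.6% against 10.4% from 4000 to 10000 bp.

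**Figure D2:**
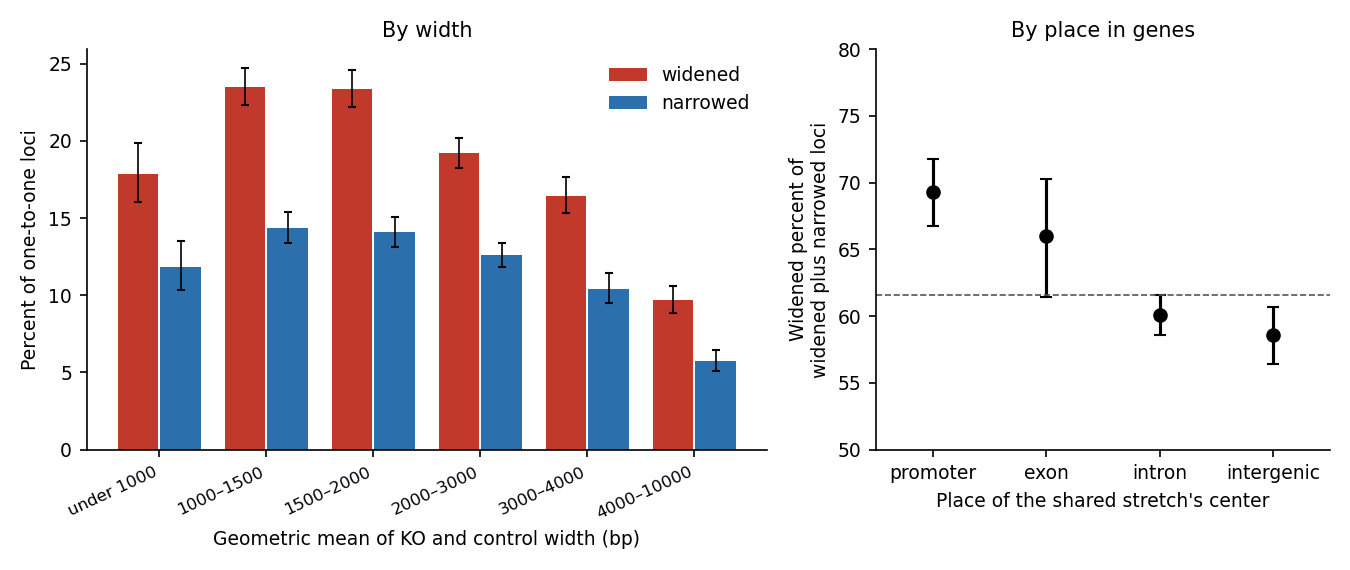
Left, percent of one-to-one loci that were widened or narrowed in KO CMs, in bins of the geometric mean of KO and control width in bp. Right, widened loci as a percent of widened plus narrowed loci by the place of the shared stretch's center, on an axis from 50% to 80%, with the 61.6% of all loci as the dashed line. Bars and whiskers are 95% Wilson intervals. Widened loci exceed narrowed loci in each bin, and the promoter share, 69.3%, lies highest.

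At genes, the widths of both widened and narrowed loci differed more on the transcribed side. In 963 members the control region covered protein-coding TSSs of 1 strand only, and the added length had a median of 853 bp downstream of the control region and 319 bp upstream. More was added downstream than upstream in 646 of them (67.1%). At 1500 bp downstream of the TSS, KO regions covered 58.2% and control regions 22.8% of these loci, and at 1500 bp upstream, 29.5% and 7.58%. At the 393 narrowed loci whose KO region, the narrower one, covered such TSSs, KO CMs had lost a median of 920 bp downstream and 263 bp upstream, and 69.7% had lost more downstream. A larger difference downstream was therefore seen at both kinds of loci. At the 5601 similar loci whose control region covered such TSSs, KO regions covered 49.9% at 1500 bp downstream and 21.1% at 1500 bp upstream. Control regions covered 48.4% and 20.1% there, so regions of both genotypes reached further downstream than upstream.

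**Figure D3:**
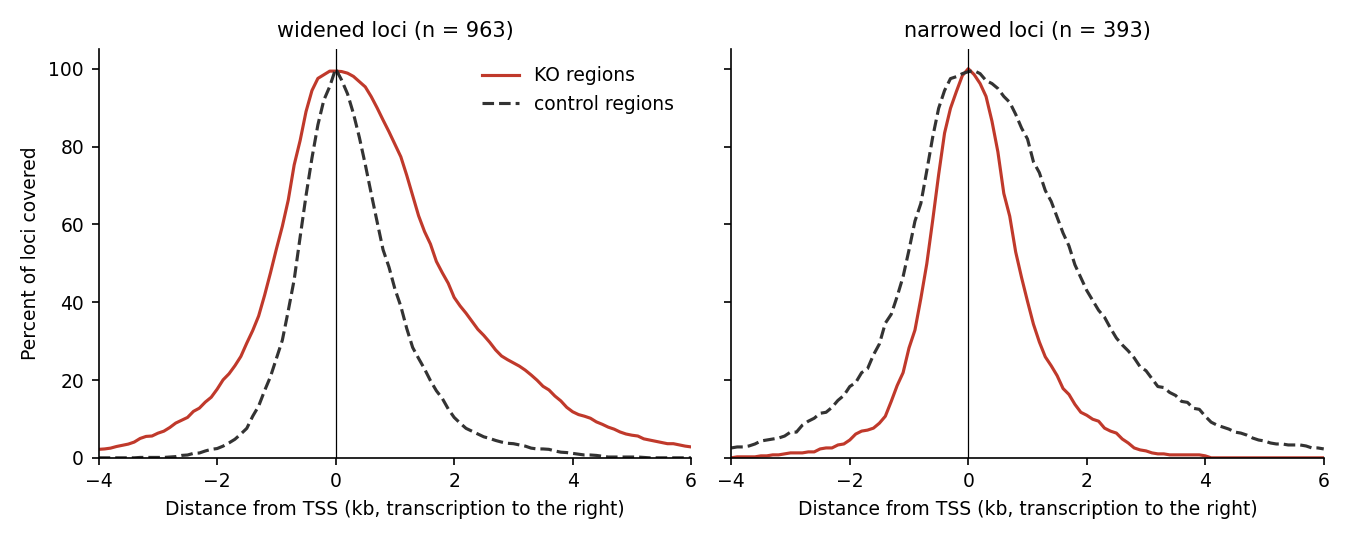
Percent of loci whose KO region (solid line) or control region (dashed line) covered each position, by distance in kb from the protein-coding TSS with transcription to the right, for 963 widened and 393 narrowed loci. In widened loci the KO line lies outside the control line on both sides and by more downstream, and in narrowed loci the lines change places.

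In 226 members (4.60%), the KO region covered a protein-coding TSS and the control region covered none, which took in 230 genes. The TSS closest to the control region lay a median of 389.5 bp from its edge. A TSS in the KO region only was found in 1.29% of all one-to-one loci and 0.605% of similar loci. The rule chose wider KO regions, which have more room for a TSS, so the higher share of members follows in part from the rule. The reverse, a TSS in the control region only, was found in 59 narrowed loci (1.92%) and in 0.539% of all one-to-one loci. Among genes of the fixed lists, a TSS was covered in the KO region and not in the control region of the member for 10 genes, which included *Acacb*, *Mgll*, *Ndufab1*, *Tmod1*, *Camk2d*, *Gata4*, *Rara*, *Hdac1* and *Hdac4*. For *Camk2d* and *Tmod1*, another member covered a further TSS in both genotypes. *Acacb* encodes the acetyl-CoA carboxylase that makes malonyl-CoA, the inhibitor of mitochondrial fatty acid uptake, at the mitochondrial surface. Its control region (chr5:114160509-114163806) ended 1462 bp before the RefSeq promoter below, and its KO region (chr5:114160583-114166015) covered the promoter whole. This promoter is shown because, of these 10 genes, it was the only RefSeq promoter that lay whole in an added stretch. It held 10 CpG sites, and neither the ERR nor the MEF2 consensus nor GGGCGG, which binds KLF and SP factors, was found in it on either strand. Of 32851 RefSeq mouse promoters of the same length, 0.423% hold the ERR consensus, 0.557% the MEF2 consensus and 35.7% GGGCGG.
Acacb promoter, chr5:114165268-114165567, plus strand: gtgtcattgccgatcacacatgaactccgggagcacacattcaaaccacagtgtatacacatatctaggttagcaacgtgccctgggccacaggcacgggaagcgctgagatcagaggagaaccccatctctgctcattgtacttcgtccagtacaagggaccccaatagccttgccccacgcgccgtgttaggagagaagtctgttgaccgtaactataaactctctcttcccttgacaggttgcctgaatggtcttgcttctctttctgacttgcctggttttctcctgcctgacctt

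Genes of metabolism and contraction were compared through 18 gene lists, with each locus given to the gene of the nearest TSS. In all, 174 members were nearest a listed gene. The share of loci widened was highest for fetal and stress genes (6 of 16, 37.5%), sarcomere and Z-disc genes (18 of 56, 32.1%), fatty acid uptake and oxidation (13 of 42, 31.0%), corepressors and histone deacetylases (17 of 59, 28.8%) and triglyceride synthesis and lipid droplets (11 of 39, 28.2%). It was lowest for adrenergic signaling (4 of 38, 10.5%), the respiratory chain (6 of 54, 11.1%) and the tricarboxylic acid cycle (3 of 24, 12.5%). With gene bodies extended by 5 kb in place of the nearest TSS, these low shares were 17.2% (10 of 58), 18.1% (17 of 94) and 15.2% (5 of 33). They then lay closer to the 18.7% of all loci, and the lists named as highest had 27.3% to 31.3%. The intervals by nearest TSS were wide. Only those of the sarcomere, fatty acid oxidation and corepressor lists lay above the 18.7% of all loci (21.4% to 45.2%, 19.1% to 46.0% and 18.8% to 41.4%). With 18 lists compared and neighboring loci in each, this does not set any list apart. Members near listed genes that do not cover a TSS of the gene are named below as examples chosen after their values were seen. A member over a TSS means one whose KO region covered it, and for the 10 genes given above the control region did not, so such members were found partly through their KO width. The members over a TSS of *Mdh2*, *Cox4i1*, *Uqcrh*, *Mccc1* and *Hopx* lay nearest the TSS of another gene (*Styxl1*, *Emc8*, *Lrrc41*, *Mccc1os* and *Hopxos*). They are therefore not among the counts by nearest TSS.

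**Figure D4:**
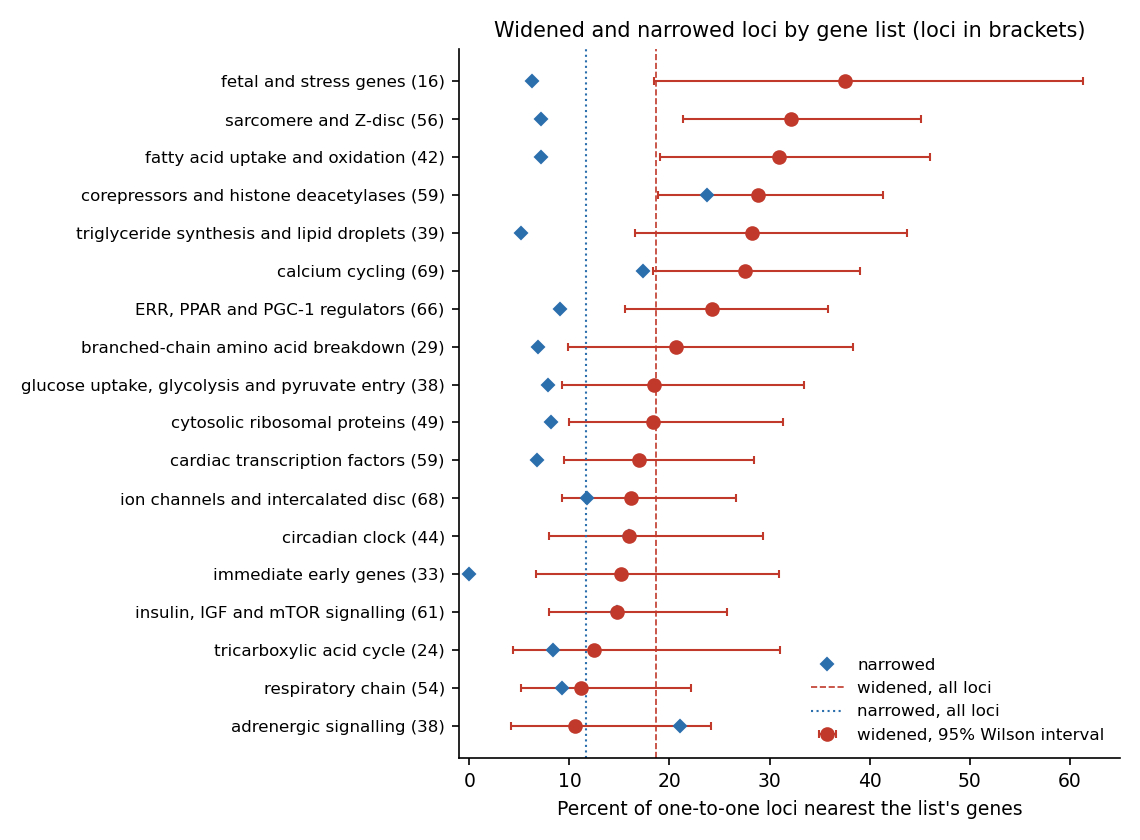
Percent of one-to-one loci nearest the genes of each of 18 lists that were widened (circles, with 95% Wilson intervals) or narrowed (diamonds), with the number of loci in brackets. The dashed and dotted lines mark all one-to-one loci, 18.7% widened and 11.7% narrowed. Fetal and stress, sarcomere and fatty acid oxidation genes lie highest, and adrenergic signaling genes have more narrowed than widened loci.

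Fatty acid oxidation supplies most of the adult heart's ATP. Near its genes, 13 loci were widened and 3 narrowed, and the median log2 ratio of the 42 loci was 0.16, against 0.07 over all loci. *Crat*, which exports acetyl groups as acetylcarnitine, had a region of 2640 bp in control and 8029 bp in KO CMs over its TSS. A further *Crat* region of 1261 bp in control was 2299 bp in KO CMs and held the ERR match shown above. The region of *Acot7*, which releases fatty acids from acyl-CoA, was 1779 bp in control and 5919 bp in KO CMs. For *Acadm* the member was 1848 and 4320 bp, and its other one-to-one loci were similar, at 2023 and 2041 bp and at 4964 and 5387 bp. For *Cpt2*, which reloads acyl groups onto CoA in the matrix, the member was 3502 and 5821 bp. The regions of *Acsl5*, an acyl-CoA synthetase, and *Slc27a1*, a fatty acid transporter, were narrower, at 1133 and 863 bp in control and 2060 and 1623 bp in KO CMs. Other members were *Acacb*, *Acsl1*, *Fabp3*, *Hadha* and *Vldlr*, and the other one-to-one loci of *Acacb* were similar, with ratios from 1.02 to 1.36. In 8 of the 13 loci the KO region joined more calls than the control region, in 3 the same number and in 2 fewer, and among loci with equal calls 3 of 17 (17.6%) were widened. With loci given to the nearest protein-coding TSS, 15 of 60 were widened and 8 narrowed.

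Triglyceride synthesis stores fatty acids in lipid droplets, from which lipases release them. Its genes had 11 widened and 2 narrowed of 39 loci, and the interval of the share widened, 16.5% to 43.8%, included the 18.7% of all loci. The median log2 ratio of the 39 loci was 0.06, against 0.07 over all loci. Only members are named below. Both enzymes of the last step were represented, *Dgat1* with a promoter region of 1584 bp in control and 3315 bp in KO CMs, and *Dgat2* with an intronic region of 1494 and 5551 bp and another of 1273 and 2635 bp. The first step was represented by *Gpam*, with 2 members of 1241 and 2579 bp in control and 2679 and 5524 bp in KO CMs, and *Gpat4*, with 2216 and 4000 bp. *Lpin2*, a phosphatidate phosphatase, had a promoter member of 2733 and 5257 bp. On the side of lipolysis, *Mgll*, the monoacylglycerol lipase, had a region of 2499 bp in control and 6817 bp in KO CMs, and *Abhd5*, a coactivator of triglyceride lipase, 3947 and 6197 bp. Among loci with equal calls 3 of 17 were widened.

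Of the mitochondrial pathways downstream, the respiratory chain and the tricarboxylic acid cycle had shares below the 18.7% of all loci, and glycolysis and branched-chain amino acid breakdown had shares close to it. The respiratory chain had 6 widened and 5 narrowed of 54 loci by nearest TSS, and 2 widened and 3 narrowed of 31 loci with equal calls. With gene bodies extended by 5 kb, 17 of its 94 loci (18.1%) were widened and 6 narrowed. Members over a TSS were those of *Ndufa5*, *Ndufab1* and *Ndufb7* of complex I, *Uqcrh* of complex III and *Cox4i1*, *Cox8a* and *Cox8b* of complex IV. Those of *Uqcrh* and *Cox4i1* lay nearest another gene's TSS, outside the 6 counted by nearest TSS. Their control widths ran from 810 bp (*Ndufab1*) to 4678 bp (*Uqcrh*) and their KO widths from 2251 to 7147 bp. The tricarboxylic acid cycle had 3 widened loci of 24. Regions over the TSS were widened for *Idh3g*, an isocitrate dehydrogenase subunit, from 3513 bp in control to 5670 bp in KO CMs, and *Mdh2*, from 1425 to 3051 bp. The *Mdh2* region lay nearest the TSS of *Styxl1* and is not among the 3. Glucose uptake, glycolysis and pyruvate entry had 7 of 38 (18.4%), with *Aldoa*, *Pgk1*, *Dlat* and *Pdk1* over the TSS. *Pdk1*, which inhibits pyruvate dehydrogenase, had 1858 bp in control and 3643 bp in KO CMs. Branched-chain amino acid breakdown had 6 of 29 (20.7%), with members over the TSS that included those of *Auh*, at 2609 bp in control and 4825 bp in KO CMs, and *Mccc1*, at 2750 and 5519 bp, both of leucine breakdown. An intronic region of *Bckdhb*, a subunit of the branched-chain ketoacid dehydrogenase, was 1507 and 9046 bp.

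Sarcomere and Z-disc genes, which build the contractile apparatus, had 18 widened and 4 narrowed of 56 loci, and 14 of the 24 genes with a locus had a member. The median log2 ratio of the 56 loci was 0.25. *Myh7*, the slow myosin of the fetal mouse ventricle, had a promoter region of 1107 bp in control and 2534 bp in KO CMs, and a second member of 2559 and 4801 bp that held the MEF2 match shown above. *Cryab*, a small heat shock protein at the Z-disc, had 5041 and 8981 bp, and *Ankrd1* 4928 and 8072 bp. *Tmod1*, which caps actin filaments, had 2 members of 1641 and 1768 bp in control and 3131 and 3171 bp in KO CMs. Distal members with the largest ratios were those of *Ldb3*, a Z-disc protein, at 876 and 7533 bp, and *Fhl2* at 597 and 4054 bp. *Tpm1*, *Csrp3*, *Des*, *Myl3*, *Myom1*, *Nebl*, *Nexn* and *Ttn* held the others. Among loci with equal calls 6 of 21 were widened.

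Calcium cycling genes had 19 widened and 12 narrowed of 69 loci (27.5% and 17.4%), both above the shares of all loci. Members over a TSS included those of *Camk2d*, the main cardiac calmodulin kinase, with 4082 bp in control and 7371 bp in KO CMs and a second of 934 and 2610 bp, and of *Pde4d*, a cyclic AMP phosphodiesterase, with 2386 and 4703 bp. *Slc8a1*, the sodium-calcium exchanger, and *Asph*, whose products include junctin, had 3 members each. Ion channel and intercalated disc genes had 11 widened and 8 narrowed of 68 loci (16.2%), and only *Ctnna3*, an α-catenin, had a member over a TSS, at 1241 bp in control and 2616 bp in KO CMs. Adrenergic signaling genes had 4 widened and 8 narrowed of 38 loci, with no member over a TSS. Their intronic members included *Prkar1a*, a regulatory subunit of protein kinase A, at 649 and 4369 bp.

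Transcriptional regulators varied. Cardiac transcription factors had 10 widened and 4 narrowed of 59 loci (16.9%). The *Gata4* member, which covered an annotated TSS in KO CMs only, was 1079 bp in control and 4350 bp in KO CMs. Those of *Hopx*, a homeodomain cofactor, and *Rxra*, the common partner of nuclear receptors, covered a TSS in both genotypes and were 3770 and 1416 bp in control and 6367 and 2455 bp in KO CMs. Genes of the ERR, PPAR and PGC-1 group and related receptors had 16 widened and 6 narrowed of 66 loci (24.2%), spread over 10 genes. *Rara*, a retinoic acid receptor, had 1015 bp in control and 2934 bp in KO CMs, and *Ppard* 1747 and 2652 bp. The *Ppard* region covered a TSS in both genotypes and the *Rara* region in KO CMs only. Distal members lay near *Esrrb*, *Esrrg*, *Ppara*, *Pparg*, *Rarb*, *Nr3c1*, *Nr3c2* and *Thrb*. *Thrb*, a thyroid hormone receptor, had 4 members, the widest with 2682 bp in control and 8724 bp in KO CMs.

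The list of corepressors and histone deacetylases, which also holds the acetyltransferase gene *Crebbp*, had 17 widened and 14 narrowed of 59 loci. Both directions thus exceeded the shares of all loci. *Hdac4*, a class II deacetylase, had 4 members. Among them was a region of 573 bp in control and 3686 bp in KO CMs at an annotated TSS, which it covered in KO CMs only. *Hdac1* had 590 and 1348 bp, with a TSS covered in KO CMs only. *Ncor1* had 3581 and 6299 bp, *Ctbp1* 3706 and 5702 bp and the acetyltransferase gene *Crebbp* 1463 and 3112 bp, each over a TSS in both genotypes. *Nrip1* had 3 one-to-one loci, all intronic, and they differed in direction. One was 7157 bp in control and 2926 bp in KO CMs, the next 1579 and 5983 bp and so a member, and the last 1403 and 1833 bp. Among loci of the list with equal calls, 10 of 34 were widened and 10 narrowed, and with loci given to the nearest protein-coding TSS, 35 of 111 were widened and 19 narrowed.

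Fetal and stress genes had 6 widened and 1 narrowed of 16 loci, which included *Myh7* and *Ankrd1* from the sarcomere list. Others included those near *Gdf15*, a stress cytokine, at 1555 bp in control and 2904 bp in KO CMs, and *Postn*, at 2778 and 5128 bp but 86578 bp from the TSS. Immediate early genes had 5 widened and 0 narrowed of 33 loci (15.2%), with *Ier3* (3403 and 6025 bp) and *Klf2* (3051 and 7329 bp) over a TSS. With loci given to the nearest protein-coding TSS, 21 of 120 were widened and 18 narrowed. Insulin, IGF and mTOR genes had 9 widened and 9 narrowed of 61 loci. The region of *Akt1*, the insulin signaling kinase, was 1201 bp in control and 5632 bp in KO CMs, that of *Rptor*, of the mTORC1 complex, was 1336 and 2013 bp, and *Grb14*, an adaptor that inhibits the insulin receptor, had 4 members. Circadian clock genes had 7 widened and 7 narrowed of 44 loci, and *Rora* held the member over a TSS, with 1577 and 4006 bp. Cytosolic ribosomal protein genes had 9 widened and 4 narrowed of 49 loci (18.4%), each of the 9 at a promoter (*Rpl12*, *Rpl13*, *Rpl22*, *Rpl23*, *Rpl30*, *Rpl34*, *Rps15*, *Rps19* and *Rps21*), with ratios from 1.55 to 1.96. Among marker genes, CM markers had 1 widened and 1 narrowed of 7 loci, endothelial markers 6 and 5 of 17, mural markers 1 and 1 of 4, fibroblast markers 1 and 0 of 2, and macrophage markers had no one-to-one locus. *Kdr*, an endothelial receptor for VEGF, had the only marker member over a TSS, with 1517 bp in control and 2319 bp in KO CMs.

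The members with the most added length were mostly intronic or distal regions. The largest added length, 8025 bp, was at *Srgap2*, a GTPase-activating protein, where a promoter region was 1436 bp in control and 9461 bp in KO CMs. The next were *Vps53*, of a vesicle tethering complex, at 960 and 8858 bp, the promoter of *Dip2c* at 1505 and 9401 bp, *Slc31a1*, a copper transporter, at 825 and 8597 bp, and *Lama2*, a laminin chain of the muscle basement membrane, at 660 and 8337 bp. *Bckdhb*, Gm49572, *Adgrf1*, *Ern1* and Gm34417 completed the 10, with 7178 to 7539 bp added. *Ern1*, the endoplasmic reticulum stress sensor IRE1α, had the largest ratio, 13.4, with 589 bp in control and 7890 bp in KO CMs. Others among the 10 largest ratios were *Lama4*, a second laminin chain, at 628 and 6565 bp, Gm24933, Gm44668 and *Mir6715*, with ratios down to 9.18. All these control regions joined 2 calls, except that of *Dip2c* with 3, and the KO regions joined 3 to 6. At the other end, the members closest to the limit were those of *Lmbrd1* (4009 and 6014 bp), *Fam129b* (2719 and 4079 bp) and 1700011L03Rik (1737 and 2606 bp). The loci just outside it were those of Gm14862, *Galnt2* (804 and 1206 bp, a ratio of exactly 1.5) and Gm44065. Within a ratio of 1.6 lay 904 members.

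The members were spread over 4112 genes, of which 610 had at least 2 members, 127 at least 3 and 15 at least 5. Of the 610 genes, 430 had no narrowed locus, where 11.7% of all one-to-one loci were narrowed. By comparison, 320 genes had at least 2 narrowed loci and 5 at least 5. *Hivep3*, a zinc finger transcription factor, had 7 members among 10 loci, and *Pde4d* 7 of 24, with 5 narrowed. Gm22715 and Gm16237, noncoding genes inside *Gse1* and *Disc1*, had 7 of 10 and 7 of 11. Gm13134, antisense inside *Prdm16*, had 6 of 6, *Stox2* 6 of 11 and *Nav2* 6 of 14. Genes with 5 members included *Chd7*, a chromatin remodeler, *Ptprm*, *Foxn3*, Gm32357, *Sox6*, *Kalrn* and *Rora*, and for *Sox6* none of the other 10 loci was narrowed. With protein-coding genes only, *Gse1* had 10 members of 26 loci, *Zmiz1* 9 of 18 and *Prdm16*, a transcription factor of brown fat and the developing heart, 8 of 17. Those with 7 were *Hivep3*, *Pcdh7*, *Rgs6*, *Nav2*, *Arid1b*, *Cited2*, *Tbl1xr1* and *Pde4d*. *Rgs6*, which limits G protein signaling in the heart, had 7 widened and 0 narrowed of 19 loci. These counts rise with the number of loci a gene has. The share of all genes without a narrowed locus was not computed, so a lack of narrowed loci sets no gene apart.

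In sequence, the shared center of members carried the ERR consensus shown above more often than that of similar loci, and the added stretch did not. In the 200 bp around the center of the shared stretch, it was found in 48 of 4915 members (0.977%, interval 0.737% to 1.29%), 103 of 18353 similar loci (0.561%, 0.463% to 0.680%) and 20 of 3070 narrowed loci (0.651%, 0.422% to 1.00%). The intervals of members and similar loci did not overlap, and those of members and narrowed loci did. Outside repeats, the match was found in 0.834% of members (0.616% to 1.13%), 0.420% of similar loci (0.336% to 0.524%) and 0.489% of narrowed loci. Among loci with equal calls, it was found in 1.17% of members, 0.554% of similar and 0.517% of narrowed loci. Of the 48 members, 5 were at promoters. In the middle 200 bp of the longer added stretch, the share was 0.631% (0.445% to 0.895%), and in the lost stretch of narrowed loci 0.619%. Counted over whole stretches with repeats included, the ERR consensus was about as dense in the shared (34.6 matches per Mb) as in the added parts of members (32.3 per Mb). Of these matches, 31.7% and 40.9% lay in repeats. The shared stretches of similar loci held 32.7 per Mb, so the difference seen at the centers was small by this count. Outside repeats, the shared parts of members held 28.8 matches per unmasked Mb and the added parts 24.7. The shared stretches of similar loci then held 24.5 and those of narrowed loci 22.9.

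The MEF2 consensus behaved otherwise. It was found in 1.40% of shared centers of members (interval 1.11% to 1.77%), 1.63% of narrowed and 1.20% of similar loci, and the 3 intervals overlapped. In the added stretch of members it was found in 0.346% (0.216% to 0.554%) and in the lost stretch of narrowed loci in 0.293%. Over whole stretches there were 46.1 matches per Mb in the shared and 23.1 in the added part. Similar loci had 40.7 per Mb in the shared part, 18.7 in stretches covered in KO CMs only and 21.5 in those covered in control CMs only. MEF2 matches were thus denser in the part covered in both genotypes at widened, narrowed and similar loci alike. GGGCGG was found in 11.3% of the shared centers of members, 7.95% of those of narrowed and 13.5% of those of similar loci, and in 4.19% of added stretches. Shares differed less between center and added stretch for the nuclear receptor half-site AGGTCA, which is part of the ERR consensus (14.7% and 12.9%), the GATA motif AGATAA (11.7% and 10.4%), the TEAD motif GGAATG (504 of 4915 centers and 538 of 4911 added stretches), the AP-1 motif TGANTCA (6.47% and 5.88%), the NKX2-5 motif TNAAGTG (10.8% and 11.3%) and the CArG box of serum response factor (0.916% and 0.794%), each searched on both strands. Mean GC content was 48.8% at the shared centers of members and 45.3% in the added stretches, and it was not matched between the windows. Repeats made up 17.8% of the shared and 22.8% of the added length.

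**Figure D5:**
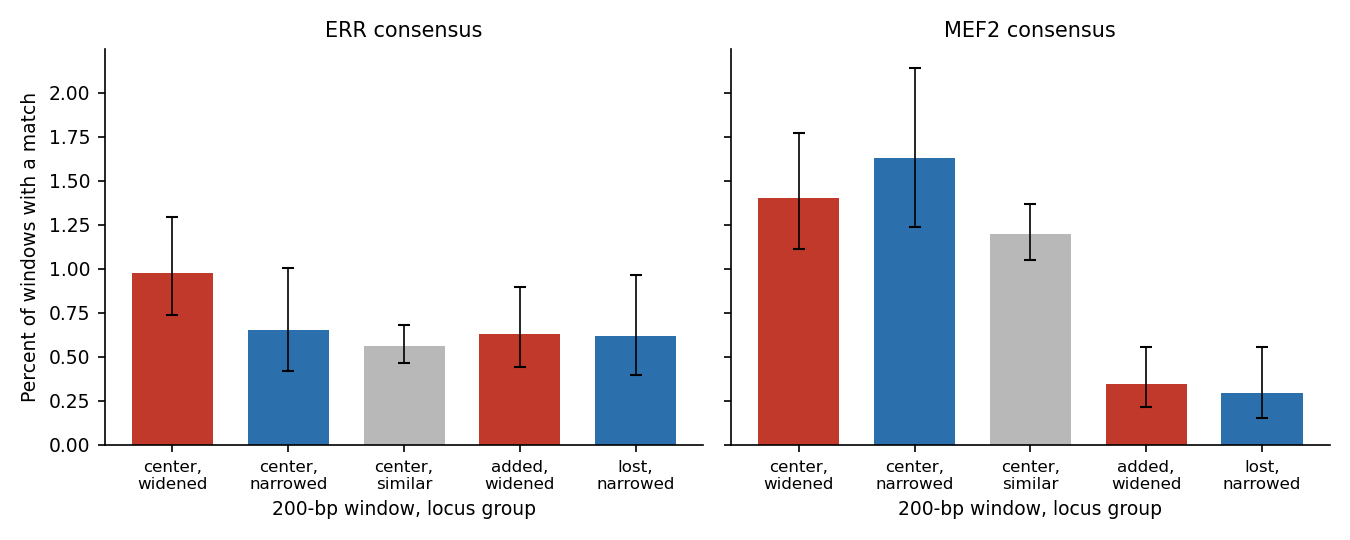
Percent of 200-bp windows with a match to the ERR or the MEF2 consensus, at the center of the shared stretch of widened, narrowed and similar loci, and in the middle of the longer added stretch of widened or lost stretch of narrowed loci. Whiskers are 95% Wilson intervals. The ERR share is highest at the centers of widened loci (0.977%), and the MEF2 share is lower in added and lost stretches than at any of the centers.

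Members lay somewhat closer to regions found in KO CMs only than other loci did. The median distance to the nearest KO-only region was 34784 bp for members, 40070 bp for narrowed and 42404 bp for similar loci. For control-only regions the distances were 25615 bp, 20651.5 bp and 27091 bp, so narrowed loci lay closest to those. The next one-to-one locus along the chromosome was also widened for 20.5% of members (interval 19.4% to 21.6%), 18.1% of narrowed loci (16.8% to 19.5%) and 18.3% of similar loci (17.7% to 18.8%). It was narrowed for 14.3% of narrowed loci and 11.8% of members. Neighbors thus shared a direction slightly more often than other pairs of loci.

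Among chromosomes, X stood apart. The mice were male, and the part of this in the X values was not tested. Of its 594 one-to-one loci, 60 (10.1%, interval 7.93% to 12.8%) were widened and 37 (6.23%) narrowed, against 18.9% and 11.8% on the autosomes. The share widened ran from 16.1% on chromosome 10 to 22.9% on chromosome 17 among autosomes. Widths on X were similar to those elsewhere, with medians of 2293.5 bp in control and 2452 bp in KO CMs. The log2 ratios of widths were less spread on X (SD 0.49 over loci) than on autosomes (0.66). Fewer regions on X joined 3 or more calls in both genotypes, at 25.9% against 39.9% in KO and 23.4% against 36.6% in control CMs. Of its loci, 25.1% lay at promoters, against 20.8%.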

How the data were processed

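H3K27ac CUT&RUN data came from isolated cardiomyocytes of control (Nrip1 f/f, no Cre) and KO (Nrip1 f/f with Nkx2.5-Cre) mice, with 3 H3K27ac and 3 IgG samples per genotype. The authors mapped 40-bp paired-end reads on GRCm38 (Bowtie2 2.4.2), and duplicate reads were taken out with SAMtools. HOMER 4.11.1 (findPeaks in histone style, IgG as background) gave the regions of every replicate, and mergePeaks joined them, keeping those of at least 2 of the 3 replicates. The deposited files hold 1 BED list per genotype with region starts and ends, and the deposited score column is 1 in every row and was not used. Read depth and replicate values were not analysed here, so depth is unknown and no test was made. The number at the end of each region name was read as the number of calls joined, which the sources used here do not state.

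Regions were paired and described with Python 3.11.15, numpy 2.4.6, scipy 1.17.1 and matplotlib 3.10.9. Width is end minus start. Genes, repeats and sequences came from GRCm38.p6 references. A locus was placed by the center of the shared stretch, with a promoter from 1000 bp upstream to 100 bp downstream of a TSS. Pairing and counting were checked on simulated region lists. The members and the 23 gene lists (561 symbols, all matched) were chosen with earlier results of these data known. Genes were named by rule: the 10 members with the largest added length, the 10 with the largest ratio, the 10 genes with the most members (ties kept, and again with protein-coding genes only), every listed gene with a TSS in the KO region of a member, the 3 loci on either side of the limit, and *Nrip1*. Alternatives changed the fold and width limits, overlap, scaling, promoter limits, gene assignment and motif windows. Those with equal calls, and a wider window at the shared centers, were chosen after seeing the data. Some genes that the rule names are not reported here.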

Additional observations from a re-analysis of the deposited data

How the results depend on the processing

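Widened loci outnumbered narrowed loci in the whole set under each alternative computed. By list, the respiratory chain turned from 6 widened and 5 narrowed to 2 and 3 with equal calls. It had 10 and 5 of 71 loci with protein-coding genes only, and 17 and 6 of 94 with gene bodies extended by 5 kb. The clock genes turned from 7 and 7 to 8 and 9 with protein-coding genes only, 6 and 7 with gene bodies extended and 6 and 4 with equal calls. The promoter and TSS direction comparisons between widened and narrowed loci were not computed under most alternatives. With a fold limit of 2, there were 2038 members, 7.74% of one-to-one loci were widened, widened loci were 62.7% of widened plus narrowed loci and 15.7% of members lay at promoters. With a limit of 1.3 these values were 7406, 28.1%, 60.0% and 20.7%. With both regions at least 1000 bp wide, 15.7% were widened, 19.8% of members lay at promoters and 61.1% had the added length mostly on 1 side. An overlap of 50% of the narrower region gave 19.4% widened. KO widths divided by the median ratio gave 15.9% widened and 53.1% of both. Cutting the longer list to its widest regions, so that both were equally long, gave 16.8% widened, 58.0% of both and 61.5% mostly on 1 side. Merged loci with summed widths, for which sidedness was not computed, put 14.3% of members at promoters. Loci with equal calls gave 2981 members, 15.3% at promoters and 57.6% mostly on 1 side, and loci with 2 calls in both lists gave 2566 members, 20.9% widened, 59.8% of both, 11.8% at promoters and 57.3% mostly on 1 side. The promoter share of members was 26.4% with limits of 2000 and 500 bp, 30.2% with any TSS in the KO region, 16.4% with protein-coding genes only and 14.8% by the center of the KO region. With 90% in place of 80%, 43.9% of members had the added length mostly on 1 side. In 500-bp windows, 1.83% of added stretches held the ERR and 0.970% the MEF2 consensus, and next to the control edge 0.591% held the MEF2 consensus. At shared centers, 500-bp windows held the ERR consensus in 2.14% of members, 1.66% of narrowed and 1.56% of similar loci. With protein-coding genes only, 290 members were nearest a listed gene. The cause of these shifts was not tested. With no upper width limit, with both regions under 5000 bp or on autosomes only, there were 4957, 4156 and 4855 members, and widened loci were 61.6%, 61.0% and 61.5% of both. No paired analysis was possible because the replicates are merged in each list, and for the same reason no replicate could be left out.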
